A study of Mus musculus with 14 samples.

Results

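The proteins of the mitochondrial ribosome were followed in neuronal nuclei from the medial entorhinal cortex, a parahippocampal area with position-tuned neurons, of young and aged mice. Their genes were taken by symbol, as Mrpl for the large subunit or Mrps for the small subunit followed by a number and an optional letter, without names marked as pseudogenes. The rule found 77 of the 27781 named genes, 48 Mrpl and 29 Mrps, and used no measured value. SmartSeq libraries, made from very small amounts of RNA, came from 7 young samples (numbered 2, 3, 11, 16, 17, 18 and 19) and 7 aged samples (numbered 3, 4, 5, 6, 7, 12 and 13). Apart from their numbers, the samples, all labelled as neuronal nuclei, differ in their labels by age alone. The study set the contrast of young and aged beside electrophysiological recordings. Strain, genotype, sex, age in months and batch are not given in the labels, which also do not state how many animals gave the libraries. The p-values below therefore describe the spread among libraries, which may be technical.

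Mitochondria translate the few messenger RNAs of their own genome, which encode core subunits of the respiratory chain and of ATP synthase. Their ribosome joins mitochondrially encoded ribosomal RNA with proteins encoded in the nucleus, translated in the cytosol and imported. Some of these proteins descend from bacterial ribosomal proteins and others are found only in mitochondrial ribosomes. Neurons depend on oxidative phosphorylation for ion pumping and synaptic transmission. Names do not follow structure throughout: the products of Mrps30 and Mrps18a sit in the large subunit, and that of Mrps36 is now known as a component of the oxoglutarate dehydrogenase complex. By structure the 77 genes therefore comprise 50 of the large subunit, 26 of the small subunit and Mrps36.

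The promoters are shown because 3 short motifs are more frequent there than in protein-coding genes as a whole. The genes are spread over 17 chromosomes. RefSeq windows (build GRCm38.p6) from 250 bases before to 50 bases after the transcription start were matched for 68 of the 77 genes, 74 windows in all, and searched on both strands. The letters CCGGAAG, a core of the site bound by ETS factors such as GABP, stood in 33.8% of the 74 windows and in 11.6% of 21263 windows of protein-coding genes. The letters GCGCA, any base and then GCGC, a form of the site of NRF1, a nuclear regulator of respiratory genes, stood in 17.6% against 6.38%, and AAGATGGC, a form of the YY1 site, in 16.2% against 3.05%. In all, 42 windows held at least 1 of these 3 motifs (56.8% against 18.9%). The Sp1 letters GGGCGG were found in 52.7% against 46.2%, TATAAA in 6.76% against 12.6%, and TGACGTCA in 2.70% against 2.23%. Median GC content was 58.5% in the members' windows and 56.3% in the coding windows. Among coding windows at or above the members' median GC content, the ETS, NRF1 and YY1 letters stood in 17.2%, 11.2% and 3.87%. A match describes the letters and is not evidence of binding.

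Printed 5′ to 3′ on the gene's own strand are the 120 bases upstream of the start of 4 genes. These printed stretches touch no annotated exon, and motif letters are in capitals on whichever strand they were found. A stretch of Mrpl48 with the ETS letters met the same conditions and is not shown. Mrpl45 (chr11:97315596-97315715, plus strand) holds the NRF1 letters at 2 places, Mrps22 (chr9:98601680-98601799, minus strand) and Mrpl34 (chr8:71464806-71464925, plus strand) hold the ETS letters, and Mrpl52 (chr14:54426789-54426908, plus strand) holds the ETS letters on the opposite strand.
Mrpl45: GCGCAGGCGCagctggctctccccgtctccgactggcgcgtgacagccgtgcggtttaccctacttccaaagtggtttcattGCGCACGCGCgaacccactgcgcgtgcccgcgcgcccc
Mrps22: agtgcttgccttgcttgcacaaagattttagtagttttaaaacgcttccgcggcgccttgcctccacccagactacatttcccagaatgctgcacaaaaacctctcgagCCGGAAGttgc
Mrpl34: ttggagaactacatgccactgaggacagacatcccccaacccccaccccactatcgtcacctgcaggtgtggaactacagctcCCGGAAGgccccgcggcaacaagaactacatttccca
Mrpl52: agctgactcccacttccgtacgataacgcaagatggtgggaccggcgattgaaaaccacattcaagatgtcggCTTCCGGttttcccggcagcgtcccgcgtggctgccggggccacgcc

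Before the age comparison, the libraries themselves need describing, because they fell into 2 sets apart from age. Xist RNA, which in female cells coats and silences an X chromosome, lay between 7378 and 25459 in young libraries 2 and 3 and aged libraries 3, 4, 5, 6 and 7, and between 0 and 5.13 in the others. The sets are called Xist-positive (2 young, 5 aged) and Xist-negative (5 young, 2 aged). They also differed in the number of genes above 0 (21152 to 22812 against 25263 to 25615) and in the nuclear RNA Malat1 (11412 to 21489 against 55442 to 167698). Summed over Eif2s3y, Kdm5d, Uty and Ddx3y, genes of the Y chromosome, the value was 1.14 to 11.1 in the first set and 4367 to 9425 in the second. Age differences are therefore given from a model with age alone and from a model that also holds the library set. In bulk nuclei, fewer cells of a type and less RNA per cell cannot be told apart.

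Values are the authors' normalized values per gene, and the read depth behind them is unknown. All 77 genes were above 0 in all 14 libraries and all were tested. Their means over the 14 libraries ran from 84.7 to 2283, with a median of 584. Divided by the length in kilobases of the principal transcript, which allows levels of different genes to be set side by side, the normalized values ran from 28.1 to 1608 per kb with a median of 384. The median per kb was 364 for Mrpl and 457 for Mrps genes. The highest levels per kb belonged to Mrpl41 (1608), a large-subunit protein specific to mitochondria, Mrps6 (1532), a counterpart of bacterial S6, Mrpl37 (1524), another mitochondrion-specific protein, and Mrps15 (1519), an RNA-binding small-subunit protein. The lowest belonged to Mrpl32 (28.1), Mrpl17 (66.8), Mrps16 (82.7) and Mrpl57 (91.3), all with long annotated transcripts of 2572 to 7300 bases. The level of Mrps6 is uncertain, since 464 of its 1533 exon bases are shared with genes on its own strand.

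The age comparison asked whether the mitoribosomal genes differ between young and aged nuclei. Their differences leaned to higher values in aged libraries, and no member passed the threshold. On the log2(value + 1) scale, 74 of 77 aged-minus-young differences were positive, against 37.2% of the 24554 genes tested. The median difference was 0.45 for the 77 genes and -0.25 for all genes tested. Mrpl genes had a median of 0.47 with 45 of 48 positive, and Mrps genes 0.41 with 29 of 29 positive. By structure the medians were 0.47 for the large subunit (47 of 50 positive) and 0.37 for the small subunit (26 of 26). With limma and Benjamini-Hochberg adjustment over all genes, 0 of 77 passed an adjusted p of 0.05, where 0.00407% of all genes passed. At an unadjusted p under 0.05, 28 members were higher and 0 lower, against 6.5% and 17.6% of all genes. These 28 comprised 20 Mrpl and 8 Mrps genes.

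Adding the library set to the model made the lean smaller. There 70 of 77 differences were positive (37.5% of all genes), with a median of 0.27 against -0.16 for all genes. Mrpl genes had a median of 0.29 (42 of 48 positive) and Mrps genes 0.25 (28 of 29). Again 0 members passed in limma (0.00815% of all genes). At an unadjusted p under 0.05, 9 members were higher and 1, Mrpl42, lower, where 4.03% and 9.03% of all genes were. The 7 negative members were Mrpl42, Mrpl37, Mrps5, Mrpl24, Mrpl38, Mrpl9 and Mrpl21. Age groups overlapped for every one of the 77 genes, while 0.212% of all genes had groups that did not overlap.

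**Figure D1:**
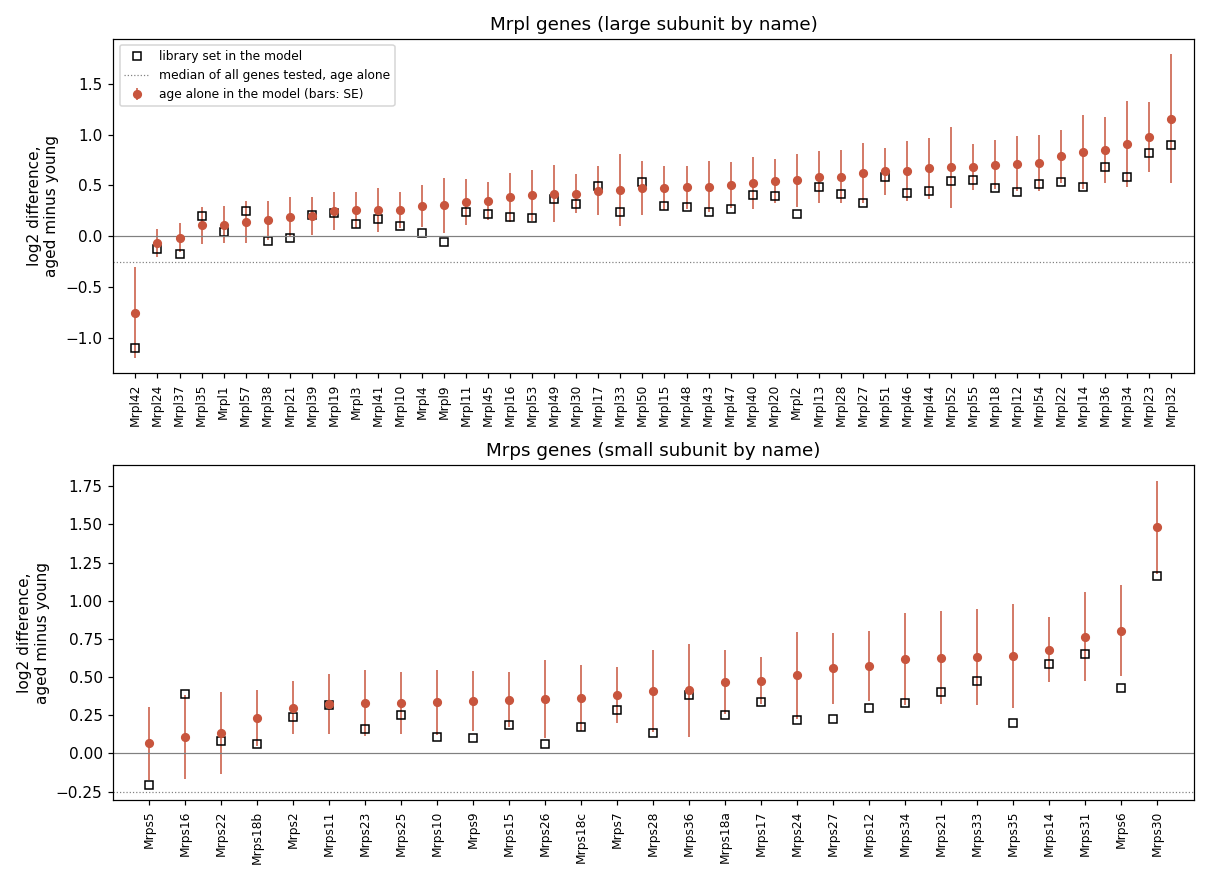
Log2 difference (aged minus young, log2(value + 1) scale) of each of the 48 Mrpl genes (top) and 29 Mrps genes (bottom), ordered by the difference with age alone in the model. Filled circles with SE bars are the fit with age alone, open squares the fit with the library set, and the dotted line is the median of all genes tested (-0.25). Only Mrpl42, Mrpl24 and Mrpl37 lie below 0 with age alone.

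The size of the lean, though not its direction in most members, depended on scaling. When libraries were set to an equal upper quartile, the median of all genes moved from -0.25 to -0.45 and that of the members to 0.26, with 66 of 77 positive against 24.8% of all genes. Setting libraries to equal totals left 74 of 77 positive (36.9% of all genes) and 1 member past the threshold in limma, Mrps30 (0.212% of all genes passed). With the library set as a term, the equal upper quartile gave a median of 0.26 (70 positive, against 36.7% of all genes) and equal totals a median of 0.40 (74 positive, against 47.1%). The medians of all genes were then -0.16 and -0.04. With limma's array weights, which down-weight the more variable libraries, 46 members passed, all higher. Of all genes 53.1% passed too and 14.8% passed as higher. The weights came from the fit with age alone and were not run with the library set. These calls therefore cannot be assigned to age apart from the set.

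Mrps30, whose product is a large-subunit protein specific to mitochondria, had the smallest p of the 77 genes (chromosome 13, 118378381 to 118387252, minus strand, mm10). Young libraries lay at 111, 118, 128, 140, 228, 273 and 376, and aged libraries at 300, 453, 456, 528, 611, 611 and 618. The groups overlapped through young library 3 and aged library 12, and all other aged libraries exceeded all young ones. The means were 196 ± 100 and 511 ± 117 (SD, n = 7 each), and the difference on the log2 scale was 1.48 (SE 0.31, limma adjusted p = 0.101), or 1.16 (SE 0.27, adjusted p = 0.151) with the library set. It was 0.72 in Xist-positive and 1.61 in Xist-negative libraries, and the interaction did not pass (unadjusted p = 0.105 in limma). In the authors' deposited table Mrps30 was the single member called, at 1.18 (log2 fold change, SE 0.28, adjusted p = 0.00299), where 2.41% of the genes with an adjusted p were called and 0.838% were called higher. Of its 6666 exon bases, 623 are shared with B430218F22Rik on the opposite strand. That gene differed by 0.94 (limma adjusted p = 0.333), and reads from the shared stretch cannot be told apart, since the sources used here do not state whether counting used strand. Over all 77 genes the authors' deposited table gave 70 positive fold changes (38.7% of its genes) with a median of 0.28, against -0.16 for its genes as a whole. It gave an unadjusted p under 0.05 to 12 members as higher (4.29% of its genes) and to 1, Mrpl42, as lower (10.2%). The authors' fold changes lay nearer the fit with the library set (70 positive, median 0.27) than that with age alone (74 positive, median 0.45). Which terms the authors' model held was not tested.

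Mrps30 was among 5 members whose residual variation did not follow that of the rest. After removing the mean of each age group within each library set (log2 scale), the 77 genes had a median correlation of 0.73 with the mean of the remaining members over the 14 libraries, a description of libraries that share their scaling. The correlation was below 0 for Mrps30 (-0.07), Mrpl19 (-0.48), Mrpl1 (-0.22), Mrpl3 (-0.11) and Mrpl47 (-0.05). The most alike were Mrpl12 (0.95), Mrpl20 (0.95), Mrpl46 (0.94) and Mrps31 (0.94).

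**Figure D2:**
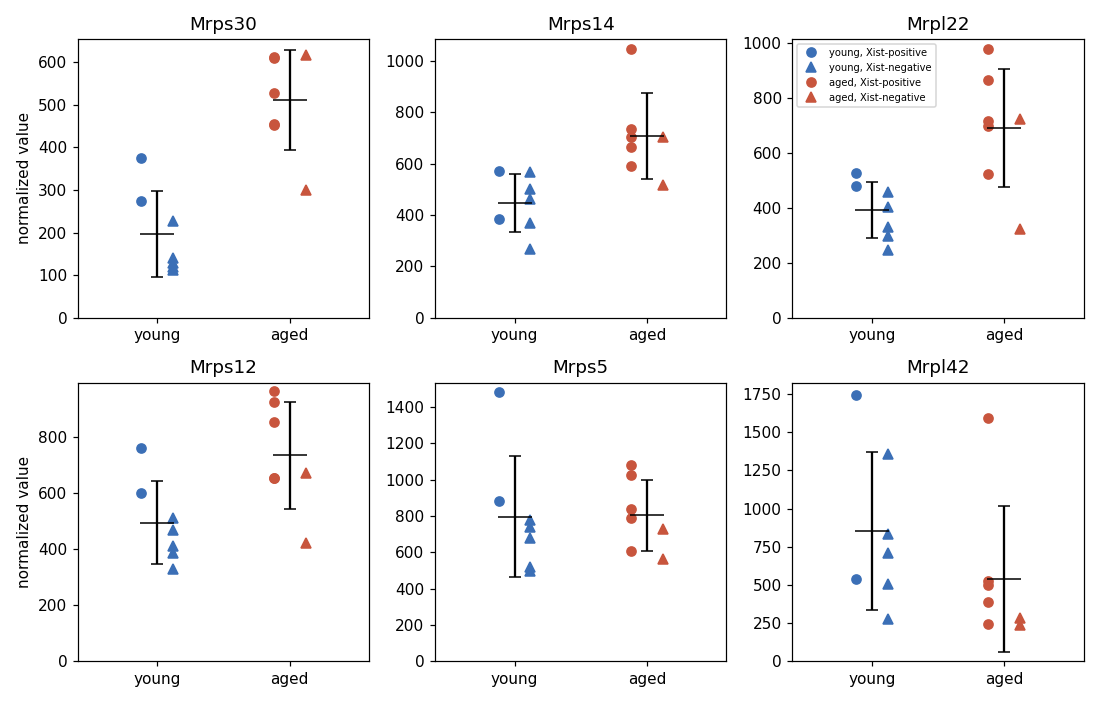
Normalized value (linear axis from 0) of 6 mitoribosomal genes in each young and aged library. Circles are Xist-positive and triangles Xist-negative libraries, horizontal lines are group means and bars SD (n = 7 each). Mrps30 has the largest separation of means, Mrps5 has nearly equal means, and Mrpl42 has the lower mean in aged libraries.

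Among large-subunit proteins the tunnel through which the new chain leaves is lined in part by the products of Mrpl22, Mrpl23 and Mrpl24, counterparts of bacterial L22, L23 and L24. Mrpl22 (chromosome 11, 58171661 to 58179565) ranged from 248 to 528 with a median of 403 in young libraries and from 322 to 980 with a median of 715 in aged libraries. The groups overlapped through aged libraries 12 and 4, the only aged ones below the highest young library. Its log2 difference was 0.78 (SE 0.26, limma adjusted p = 0.182) and 0.53 (SE 0.24, adjusted p = 0.361) with the set. Mrpl23 (chromosome 7, 142532686 to 142540747) ranged from 75.6 to 315, median 146, in young and from 196 to 465, median 362, in aged libraries. The differences of Mrpl23 were 0.98 (SE 0.34, limma adjusted p = 0.182) and 0.82 (SE 0.36, adjusted p = 0.351). Mrpl24 did not share them: its medians were 849 and 832, and its log2 difference was -0.06 (SE 0.14, limma adjusted p = 0.783). Of the 2255 exon bases of Mrpl24, 594 are shared with Rrnad1 on the opposite strand, so its value is uncertain.

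The flexible stalk that recruits translation factors is built on Mrpl10, Mrpl11 and Mrpl12. Mrpl12 ranged from 211 to 624.6, median 494, in young and from 394 to 1161, median 629, in aged libraries, with differences of 0.72 (SE 0.27, adjusted p = 0.182 in limma) and 0.43 (SE 0.24, adjusted p = 0.453) with the set. The differences of Mrpl10, the anchor of the stalk, were 0.26 and 0.10, and those of Mrpl11, at its base, 0.34 and 0.24. All 3 genes had overlapping groups.

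Other large-subunit genes with the smallest p were Mrpl18, Mrpl51 and Mrpl55. Mrpl18, of the central protuberance, ranged from 234 to 398, median 284, in young and from 260 to 872, median 481, in aged libraries. All aged libraries but library 12 exceeded every young library. Its differences were 0.70 (SE 0.24, adjusted p = 0.182) and 0.47 (SE 0.22, adjusted p = 0.379) with the set in limma. Mrpl51, specific to mitochondria, had medians of 363 and 696, and Mrpl55, the counterpart of bacterial L31, medians of 425 and 856. Their differences were 0.64 and 0.68 with age alone and 0.58 and 0.56 with the set.

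Mrpl45, which tethers the ribosome to the inner membrane, had group means of 601 ± 66.6 and 789 ± 241 (SD, n = 7 each), with differences of 0.35 and 0.22. Mrpl44, a mitochondrion-specific protein in which human variants cause cardiomyopathy, had differences of 0.67 and 0.45, and Mrpl3, near the peptidyl transferase center, 0.26 and 0.12. The highly expressed Mrpl41 and Mrpl37 gave 0.26 and -0.01 with age alone, and Mrpl17 and Mrpl57 gave 0.45 and 0.14. Mrpl32, a protein matured by the m-AAA protease, had the largest difference of the Mrpl genes, 1.16 (SE 0.64, limma adjusted p = 0.249). Its value in young library 11 was 3.005, against 46.6 to 110 in the other young libraries and 81.8 to 151 in aged ones. Over the cases that left out 1 library, its difference ran from 0.56, without young library 11, to 1.36.

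Mrpl42, specific to mitochondria, went the other way (chromosome 10, 95480805 to 95501940, minus strand). Young libraries lay between 280 and 1741 with a median of 712, and aged libraries between 237 and 1593 with a median of 392. Aged library 6 alone lay above 527. Its log2 difference was -0.75 (SE 0.45, limma adjusted p = 0.278), and -1.09 (SE 0.45, adjusted p = 0.329) with the set. It was -0.87 in Xist-positive and -1.31 in Xist-negative libraries, and -1.15 (SE 0.48, unadjusted p = 0.0250, adjusted p = 0.214) in the authors' deposited table. Mrpl42 and Mrpl37 were the 2 members negative within both sets.

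In the small subunit, Mrps14 and Mrps17, counterparts of bacterial S14 and S17, followed Mrps30 in order of p. Mrps14 (chromosome 1, 160195215 to 160202170) ranged from 266 to 571, median 460, in young and from 516 to 1046, median 701, in aged libraries, and aged library 12 was the only aged one below the highest young library. The differences were 0.68 (SE 0.21, adjusted p = 0.182) and 0.58 (SE 0.22, adjusted p = 0.304) with the set in limma. Mrps17 had medians of 1037 and 1452 and differences of 0.48 and 0.34.

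Mrps6 and Mrps31 were next among the small-subunit genes. Mrps6 ranged from 471 to 1662 in young and from 830 to 2751 in aged libraries, with a difference of 0.80 (SE 0.30, adjusted p = 0.182 in limma), or 0.43 with the set. Its library-set difference was 0.88 (adjusted p = 0.00682). The exons of Mrps6 overlap other genes by 464 bases on its own strand, so its value is uncertain. Mrps31, specific to mitochondria, had medians of 218 and 362 and differences of 0.77 and 0.65. Mrps15 gave 0.35 and 0.19.

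Mrps12, of the decoding center, had means of 496 ± 147 and 735 ± 190 (SD, n = 7 each), a difference of 0.57 (SE 0.23, limma adjusted p = 0.185) and of 0.30 with the set. Mrps7, at the head of the subunit, gave 0.38 and 0.29, and Mrps34, specific to mitochondria, 0.62 and 0.33. The exons of Mrps34 overlap other genes by 763 bases on its own strand and 1309 on the other, so its value is uncertain. Mrps22, in which human variants impair assembly of the subunit, gave 0.13 and 0.08. Mrps5, a counterpart of bacterial S5, gave 0.07 and -0.20, and Mrps16, another bacterial counterpart, 0.11 and 0.39.

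The 3 paralogs of bacterial S18 differ in where they sit. Mrps18a, in the large subunit, had medians of 1145 and 1420 and differences of 0.47 and 0.25. Mrps18b and Mrps18c, of the small subunit, had differences of 0.23 and 0.06, and of 0.36 and 0.18. Mrps36, which is no part of the ribosome, had a difference of 0.41 (0.38 with the set) with medians of 327 and 356. Its mean in aged libraries rests on library 3, at 940 against 200 to 531 in the other 6.

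The genes were also grouped by whether their product takes the place of a bacterial ribosomal protein, with Mrps18a and Mrps18b, which are related to S18 but sit elsewhere, placed among those that do not. The 30 large-subunit genes with a bacterial counterpart had a median difference of 0.49 (29 positive), and 21 without one, which include Mrps30, Mrps18a and the mitoribosomal gene listed as Ict1, had 0.47 (19 positive). The small subunit gave 0.37 for 16 genes with a counterpart (16 positive) and 0.46 for 10 without (10 positive).

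The difference between library sets was larger than that of age in number of calls. With age in the model, 24 members passed in limma, 23 higher and 1 lower in Xist-positive libraries, where 52.0% of all genes passed, 15.5% higher and 36.5% lower. Mrps27, which binds mitochondrial RNA, stood at 1510.4 ± 238 in Xist-positive against 833 ± 171 in Xist-negative libraries (SD, n = 7 each; log2 difference 0.77, adjusted p = 0.00112). Mrps16 was the member lower in the Xist-positive libraries (-0.65, adjusted p = 0.0301), at 179 ± 43.7 against 246 ± 40.5. The set differences of the members depended on scaling: 71 of 77 were positive as deposited (40.9% of all genes). With equal totals 51 were positive (27.9% of all genes) and 6 were called (50.9%), and with an equal upper quartile 36 were positive (22.7%) and 3 were called (52.9%). The median of all genes moved at the same time from -0.30 to -0.61 and -0.73.

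Within the Xist-positive libraries 64 of 77 age differences were positive (41.4% of all genes), with a median of 0.34, and within the Xist-negative ones 69 of 77 (37.7%), with a median of 0.25. Both were positive for 58 genes. The interaction of age and library set passed for 0 members and 0 of all genes in limma (0.0%). At an unadjusted p under 0.05 it reached 0 members, against 1.35% of all genes higher and 2.27% lower.

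**Figure D3:**
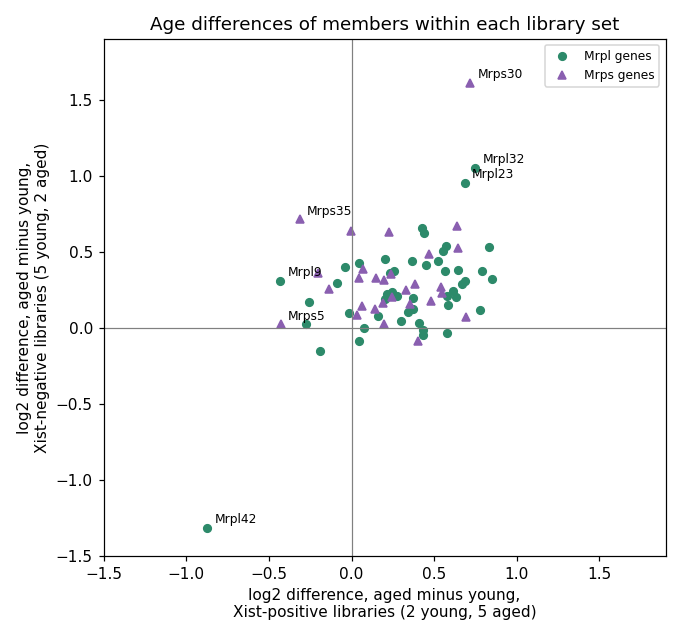
Age difference (log2 scale) of each mitoribosomal gene in the Xist-negative libraries (vertical axis) against that in the Xist-positive libraries (horizontal axis). Circles are Mrpl and triangles Mrps genes. The upper right quadrant holds 58 of 77 genes and the lower left quadrant holds 2, Mrpl42 and Mrpl37.

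Summed over the 77 genes, the normalized value was 44003 ± 8229 in young and 57537 ± 11259 in aged libraries (SD, n = 7 each), a ratio of 1.31. Young libraries ran from 32197 to 56234 with a median of 44700, and aged libraries from 38664 to 74894 with a median of 58303. The groups overlapped: young library 2 exceeded aged libraries 4, 12 and 13, and aged library 12 lay below 5 of the 7 young libraries. Within the Xist-positive set the ratio of means was 1.15 and within the Xist-negative set 1.17. The sum made up 0.152 ± 0.0196% of a library's total in young and 0.199 ± 0.0369% in aged libraries (SD, n = 7 each).

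The count of members above their own median over all libraries gives the same picture per library. It was 4, 7, 12, 17, 30, 31 and 47 of 77 in young libraries and 7, 53, 60, 65, 66, 68 and 72 in aged libraries. Aged library 12 (7) stood with the lowest young libraries, and aged library 3 (72) was the highest. Without aged library 12, 17 members passed an adjusted p of 0.05 in limma, all higher, where 11.6% of all genes passed and 2.94% passed as higher. Among the named genes these were Mrps30, Mrps14, Mrps17, Mrpl22, Mrpl55, Mrpl18, Mrpl51, Mrps6, Mrpl12, Mrpl44, Mrps12 and Mrps18a. Without young library 3, 1 member passed, Mrps30 (0.475% of all genes). Both counts are from the fit with age alone, and both cases bring age closer to the library set. Leaving out aged library 12 makes aged library 13 the only Xist-negative aged library. Leaving out young library 3 makes young library 2 the only Xist-positive young library. Once a term for the set was added, 0 members passed in either case, so these calls cannot be assigned to age apart from the set.

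**Figure D4:**
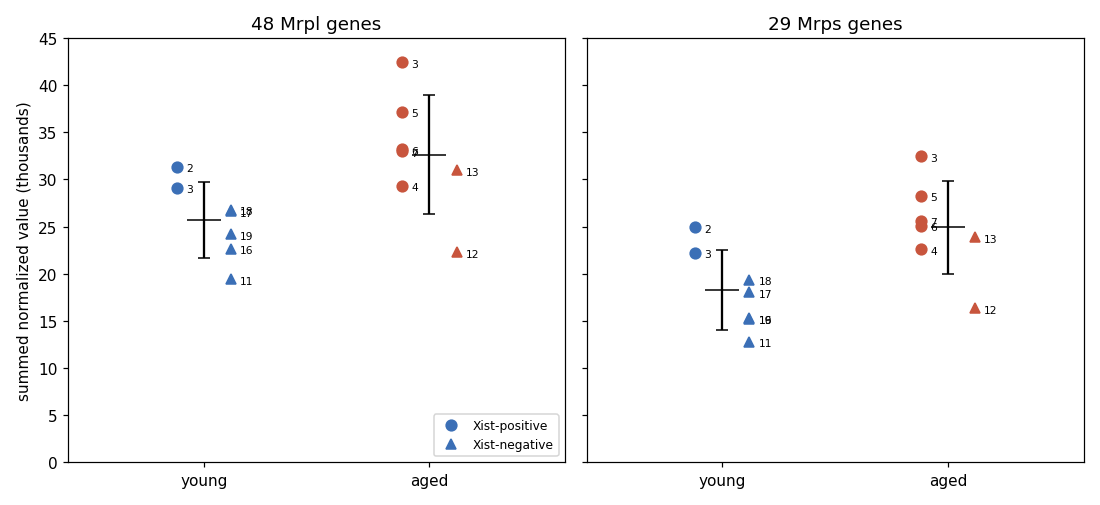
Summed normalized value, in units of 1000, of the 48 Mrpl genes (left) and the 29 Mrps genes (right) in each library, with library numbers. Circles are Xist-positive and triangles Xist-negative libraries, horizontal lines are group means and bars SD (n = 7 each). Aged library 3 is the highest in both panels and aged library 12 lies among the young libraries.

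The ratio of summed Mrpl to summed Mrps values was 1.43 ± 0.12 in young and 1.31 ± 0.03 in aged libraries (SD, n = 7 each). It followed the library set among young libraries. Within the Xist-positive set, young libraries were at 1.26 and 1.31 and the aged at 1.29 to 1.32. In the Xist-negative set the young were at 1.38 to 1.59 and the aged at 1.30 and 1.36. The age groups thus overlapped in the Xist-positive set, and the gap in the Xist-negative set rests on 2 aged libraries.

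Mitoribosomal genes are short, with a median span of 7894 bases against 19442 for all genes tested that matched the annotation, and the age difference of all genes differed with gene length. In 5 equal bins of protein-coding genes by span, the median of all genes was -0.50, -0.24, -0.10, -0.10 and -0.10 from the shortest to the longest. The order turned round with the library set as a term, to -0.04, -0.09, -0.09, -0.14 and -0.20. With age alone, in each bin the members' median was positive: 0.51 (29 of 30 genes positive), 0.47 (28 of 29), 0.30 (9 of 10), 0.49 (4 of 4) and 0.47 (4 of 4). With the set the members' medians were 0.31, 0.32, 0.22, 0.15 and 0.23. The last 3 bins hold under 20 members each. Exons of 27 members overlap a gene on the other strand and those of 8 a gene on the same strand. The 45 members without any such overlap had a median difference of 0.42 (43 positive), and 0.25 (41 positive) with the set. Members named above with an overlap on the other strand include Mrpl19 (1962 exon bases), Mrpl47 (1068), Mrps18b (638) and Mrps27 (506). Their values are uncertain for that reason.

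Many of these genes start near the start of another gene on the opposite strand. Of the 77, 33 (42.9%) had the start of a protein-coding gene on the opposite strand within 1000 bases, against 10.9% of 21924 protein-coding genes. Mrpl46 and Mrps11 are such partners of each other. Some pairs, Mrpl46 and Mrps11 among them, overlap at their starts, and others run apart from there. The 31 partners outside the family did not have the members' lean, with 14 positive and a median of -0.12 (12 positive, -0.16, with the set). Of all genes tested 37.2% were positive, with a median of -0.25 (37.5% and -0.16 with the set). The 33 members had a median of 0.51 (32 positive), and the 44 members without such a partner 0.41 (42 positive). Mrps12 (0.57) starts 172 bases from Sars2, the mitochondrial seryl-tRNA synthetase gene (-0.12). Mrpl51 (0.64) starts 100 bases from Ncapd2, a condensin subunit gene (-0.21). The partners Ndufs6 and Ndufb5, subunits of respiratory complex I next to Mrpl36 and Mrpl47, were at 0.93 and 0.89 (limma adjusted p = 0.182 and 0.185). They share 30 and 616 exon bases with Mrpl36 and Mrpl47. With strand use in counting not stated, reads from those bases cannot be told apart.

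The medians of the related gene lists lay below that of the 77 members (0.45). By age, 0 of the listed genes passed in limma (0.00407% of all genes). The 5 mitoribosomal proteins with other names were all positive. Their median was 0.38 (0.22 with the set), close to the 0.37 of the small subunit by structure. Among them Dap3, the small-subunit protein that binds GTP, stood at 1364 ± 217 in young and 1789 ± 391 in aged libraries (SD, n = 7 each; 0.38, adjusted p = 0.194), and Chchd1 differed by 0.60 (adjusted p = 0.269). Assembly factors had 22 of 27 positive with a median of 0.26, and 15 of 27 with a median of 0.09 with the set. Noa1, a GTPase needed for small-subunit assembly, stood at 208 ± 52.3 and 352 ± 69.5 (0.77, limma adjusted p = 0.182), and the authors' deposited table called it (log2 fold change 0.57, adjusted p = 0.0451). Ddx28, an RNA helicase of large-subunit assembly, differed by 0.84.

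Translation factors had 11 of 14 positive (median 0.30) and 9 of 14 (0.12) with the set. Guf1, a counterpart of bacterial LepA, differed by 0.93 and Slirp, an RNA stabilizing protein, by 0.61. Mitochondrial aminoacyl-tRNA synthetases did not lean one way, with 9 of 20 positive (median -0.01) and 5 of 20 (-0.13) with the set. Yars2, for tyrosine, stood at 284 ± 62.8 in young and 556 ± 129 in aged libraries (SD, n = 7 each; 0.96, limma adjusted p = 0.121), and the groups did not overlap, the highest young library being at 401 and the lowest aged one at 403. The authors' deposited table called Yars2 (log2 fold change 0.82, adjusted p = 0.00924). Wars2, for tryptophan, differed by -0.63.

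The messenger RNAs encoded by mitochondrial DNA, which these ribosomes translate, had 1 of 13 positive and a median of -0.39 with age alone. With the library set in the model 11 of 13 were positive with a median of 0.17. Their set differences were negative for 13 of 13 genes (lower in Xist-positive libraries), where 40.9% of all genes were positive. The median set difference was -1.77, and 9 were called lower in limma, against 36.5% of all genes. Among the 13, mt-Nd6 and mt-Nd5 differed by -1.42 and -1.10 with age alone, and by -0.28 and 0.07 with the set. In isolated nuclei such transcripts may come from mitochondria that stayed with the nuclei, which was not tested.

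Genes for mitochondrial DNA upkeep and transcription had 4 of 8 positive in both fits. Tfam, which packages mitochondrial DNA, differed by 0.31 and Polg, its polymerase, by -0.20. Nuclear regulators of mitochondrial biogenesis had 5 of 8 positive (median 0.06) and 1 of 8 (-0.14) with the set. Gabpa, a subunit of the ETS factor named above, differed by -0.28 (limma adjusted p = 0.359), and Ppargc1a, a coactivator of these regulators, by 0.42 (-0.10 with the set).

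**Figure D5:**
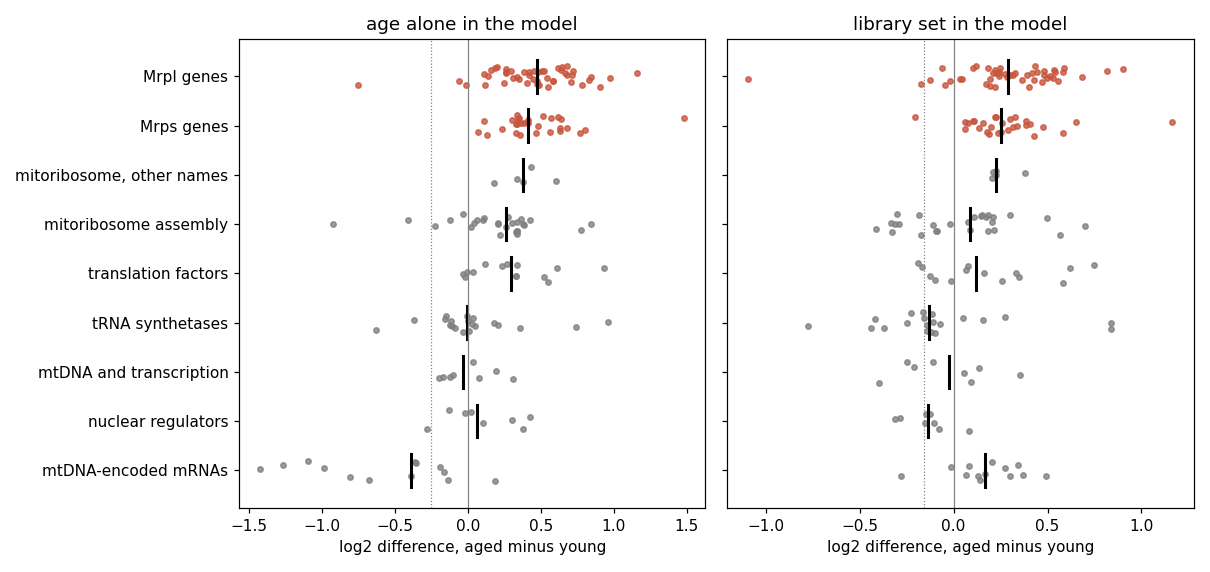
Age differences (log2 scale) of the Mrpl and Mrps genes and of 7 lists of related genes, from the model with age alone (left) and from that which also holds the library set (right). Each point is a gene, vertical black bars are list medians and the dotted line is the median of all genes tested. The mRNAs encoded by mitochondrial DNA move from a median of -0.39 to 0.17 between the panels, while both subunits stay above 0.

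Cell type markers were read beside these results. The glial markers, like the members, had mostly positive age differences, and with the library set their medians lay above the members' median of 0.27. All 6 neuronal markers, among them Rbfox3 and Snap25, were above 0, with a summed value of 100308 to 147337 in young and 94845 to 172955 in aged libraries, and all 6 had positive age differences (median 0.39, and 0.24 with the set). Of 5 astrocyte markers 4 were positive (median 0.22, and 0.66 with the set), with sums of 3583 to 6350 in young and 2565 to 8860 in aged libraries. Of 5 oligodendrocyte markers 4 were positive (0.55, and 1.04 with the set), with sums of 3060 to 8910 and 4664 to 16245. For oligodendrocyte precursors 2 of 3 were positive (0.80, and 1.45 with the set; sums of 151 to 1544 and 235 to 1606), and for microglia 3 of 5 (0.14, and 0.70 with the set; 543 to 3095 and 599 to 4016). Median sums, young then aged, were higher in aged libraries for astrocytes (4069 and 6338) and oligodendrocytes (5471 and 7824). They were lower in aged libraries for precursors (776 and 559) and microglia (1761 and 1342). Endothelial markers had 0 of 3 positive (-0.76, and -0.23 with the set; 324 to 2102 and 197 to 1451). None of these markers was called by age in limma and none was at 0 in all libraries. The part of cell composition in the mitoribosomal differences was not tested.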

How the data were processed

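The authors deposited 1 table of 27781 named genes with 14 library columns of normalized signal per gene, per the file headers and the values: they are not whole, and reads could not be recovered (only 20.9 to 30.1% of low values came within 0.05 of a whole step), so depth is unknown and no count model was used. A row without a name (0.0430 to 0.221% of a total) was left out. The authors' log2 fold change, its p-value and a test score, per the file headers, were used as the authors' comparison alone. The submitters' processing notes list STAR, kallisto, DESeq2 and mm10, with neither version nor role.

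limma 3.58.1 (R 4.3.3) with a mean-variance trend was fitted to log2(value + 1) for genes at 1 or more in at least 7 libraries (4 within a set), with Benjamini-Hochberg adjustment over all genes tested. The planned fits hold age alone, age with the library set (Xist of 1000 or more), and their interaction. Coordinates, transcripts and overlaps come from GENCODE M21 on mm10, with 77 of 77 members matched. Members, lists and tests were chosen with earlier results of these data known. Named members are those called in either age fit or in the authors' table, the 5 per subunit with the smallest p in each age fit, the 4 highest and 4 lowest per kb, and a list with known roles. Related lists name up to 2 genes each by p. Other members are named where a count or sequence shown involves them, chosen after their values were seen. The fit was run on simulated data with independent noise per gene and differences larger than the members' medians. That run does not describe power or error at the differences seen here. The mitochondrial ribosomal RNA genes were not analysed here. Python 3.11.15, numpy 2.4.6, pandas 2.3.3 and matplotlib 3.10.9 were used.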

Additional observations from a re-analysis of the deposited data

Results flagged for a closer look

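In 5 of 70 groups of 7 libraries examined (34 named members and the summed value, young and aged), 1 library lay farther from its neighbor than Dixon's limit allows, where chance gives about 1 in 20. Mrps5 stood at 1482 in young library 2, against 499 to 883 in the other young libraries. Mrpl42 stood at 1593 in aged library 6 (others 237 to 527), Mrpl3 at 2458 in aged library 7 (others 1301 to 1755) and Mrps14 at 1046 in aged library 3 (others 516 to 733). Mrpl24 stood at 1118 in young library 3 (others 771 to 900).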

How the results depend on the processing

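The count of members called by age (0) was 1 with equal totals, 46 with array weights and 0 to 17 when 1 library was left out (17 without aged library 12, 1 without young library 3, 0 in the other 12 cases). It stayed at 0 under the other pseudocounts, filters and an equal upper quartile, without the trend, and within each library set. In the model that also holds the library set, 0 members passed in every case run. Those cases were the pseudocounts, filters, scalings and leaving out 1 library. Array weights and the fit without the trend were not run with the library set. Median differences ran from 0.38 to 0.58 (Mrpl) and from 0.31 to 0.55 (Mrps) when 1 library was left out. Calls by library set (24) were 6 with equal totals and 3 with an equal upper quartile. Differences near 0 changed sign: with an equal upper quartile Mrpl57 was at -0.060, Mrps16 at -0.089, Mrps22 at -0.067 and Mrps5 at -0.13, and Mrps5 was at -0.20 with the library set. Leaving out 1 library gave -0.072 to 0.037 for Mrpl37, -0.024 to 0.20 for Mrps16 and -0.031 to 0.23 for Mrps5. The causes were not tested. Library-set ratios of the summed value were chosen after seeing the data. No paired analysis was possible because the age groups share only 1 replicate number. Unknown depth limits what can be said of low genes such as Mrpl32.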
